A study of Mus musculus with 6 samples.

Results

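Myc and 34 genes of nucleolar ribosome biogenesis were compared between Twist2-lineage cells and the other non-cardiomyocytes of the adult mouse heart. The members were the rows of the count table whose gene symbol equals 1 of 35 listed names, and all 35 were found among its 24062 symbols. Bulk RNA sequencing measured non-cardiomyocytes of Tw2-CreERT2;R26-tdTO mice, in which a tamoxifen-dependent Cre recombinase driven by Twist2 marks cells permanently with the red fluorescent protein tdTomato. Tamoxifen dosing began at an age of 8 weeks, and hearts were processed 10 days later, the mice being recorded as 9 weeks old. The Tw2+ group comprised 3 libraries of sorted tdTomato-positive cells and the Tw2- group 3 libraries of sorted tdTomato-negative cells. Both groups therefore carried the driver and the reporter and had been given tamoxifen, and Tw2- cells are a mixture of all cells left unmarked. Each group has libraries numbered 2 and 3 and an unnumbered one, whose column carries no number. Where 3 values are given for a group without names, they stand in the order 2, 3, unnumbered. The series describes the libraries as biological replicates, and the number of hearts behind each is not given in what was used here.

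Ribosomes are assembled mainly in the nucleolus, where RNA polymerase I transcribes ribosomal DNA into a long precursor RNA. Small nucleolar ribonucleoproteins (snoRNPs) modify that precursor, box C/D particles by ribose methylation and box H/ACA particles by pseudouridylation, while large sets of assembly factors fold and cleave it into the RNAs of the small and the large ribosomal subunit. Myc is a basic helix-loop-helix leucine zipper transcription factor that pairs with Max, binds the E-box CACGTG and is widely known as an activator of ribosome biogenesis genes. Cardiac fibroblasts secrete most of the extracellular matrix of the heart, a task that draws on high protein synthesis.

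The E-box is shown first because it is the sequence that Myc and Max bind. RefSeq promoters on GRCm38.p6, each covering 250 bases before to 50 bases after a transcription start, matched 29 of the 35 members, and Bop1, Fbl, Myc, Nol6, Npm1 and Rrp12 were not matched. The letters CACGTG, which read the same on both strands, occurred in the promoters of 6 of the 29 members (20.7%), compared with 8.09% of the 27025 genes that have a promoter in the table and 11.6% of the 9860 of them that were also tested for expression. Counted by promoter, 6 of 33 member promoters held it (18.2%), against 7.15% of 32851 promoters. The 6 sites are printed below 5′ to 3′ on the strand of the gene, in windows of 30 bases with the E-box in capitals.
Mybbp1a: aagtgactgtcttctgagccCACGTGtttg
Pes1: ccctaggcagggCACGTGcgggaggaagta
Tsr1: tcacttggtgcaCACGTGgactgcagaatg
Utp18: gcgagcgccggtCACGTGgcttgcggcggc
Utp20: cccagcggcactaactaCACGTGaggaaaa
Wdr43: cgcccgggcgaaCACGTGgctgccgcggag
The windows lie at chr11:72441347-72441376 (+ strand) for Mybbp1a, chr11:3963965-3963994 (+ strand) for Pes1, chr11:74898092-74898121 (+ strand) for Tsr1, chr11:93885769-93885798 (- strand) for Utp18, chr10:88826765-88826794 (- strand) for Utp20 and chr17:71616220-71616249 (+ strand) for Wdr43, in GRCm38.p6. Only the Utp18 site lies before the annotated start, with its first base 20 bases upstream; the others begin 2 (Pes1), 17 (Wdr43), 24 (Tsr1), 37 (Utp20) and 40 (Mybbp1a) bases after the first transcribed base. The related letters CACGCG, or CGCGTG on the other strand, occurred in 11 of 29 members (37.9%), compared with 10.5% of all genes with a promoter and 19.8% of the tested ones. Member promoters had a median GC content of 58.0% and a median of 21 CpG dinucleotides, against 60.7% and 20 for promoters of tested genes and 52.7% and 7 for all promoters. Of the 6 members with CACGTG, 4 passed the expression test described below as higher in Tw2+ cells. Of the 23 matched members without it, 18 did. The median log2 fold change was 1.31 over the 6 and 1.41 over the 23. A match of letters describes the sequence and does not show that Myc binds there.

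The Tw2+ libraries held 13280522, 12190199 and 11746696 counts and the Tw2- libraries 15156873, 16447098 and 11767130 counts. Levels are given as CPM, counts scaled to a fixed total per library after TMM adjustment for differences in RNA composition. Summed levels of 13 fibroblast markers were 65901 to 78843 CPM in Tw2+ libraries, against 39997 to 59262 CPM in Tw2- libraries, and the Tw2- libraries also carried macrophage markers, whose 12 genes summed to 139.6 to 331 CPM in Tw2+ libraries, against 2870.0 to 6144 CPM in Tw2- libraries. The summed vascular endothelial markers were 339, 828 and 253 CPM in Tw2+, against 2215, 2068 and 685 CPM in Tw2-. On those markers Tw2+ 3 stood above the other Tw2+ libraries, and the unnumbered Tw2- library below the other Tw2- libraries. Counts of calls among the members and the pathway lists are therefore also given with libraries left out. In bulk samples, fewer cells of a type and less RNA per cell cannot be told apart.

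Ribosome biogenesis genes were broadly higher in Tw2+ cells. In edgeR's quasi-likelihood test over 13180 genes, with Benjamini-Hochberg adjustment and a call at an adjusted p under 0.05, 27 of the 35 members were called higher in Tw2+ cells, while 7.41% of all tested genes were. That count was 35 without Tw2+ 3 and 0 without Tw2- 3, and 6 or 7 without any of the other 4 libraries. By edgeR 0 members were called lower, 0 were lower at an unadjusted p under 0.05, and 0 were called lower by DESeq2 or limma-voom, while 10.8% of all tested genes were called lower by edgeR. All 35 members had a positive log2 fold change of Tw2+ over Tw2-, with a median of 1.34 over the members and of 0.002 over all tested genes. With libraries scaled to fibroblast markers instead, 34 were positive and Bop1 was not. The values ran from 0.48 for Bop1, a large subunit assembly factor, to 1.92 for Rrp12, a factor of small subunit maturation, and 33 members were at least 2-fold higher. The 8 members without a call were Ncl, Polr1a, Polr1c, Nop58, Utp18, Utp20, Noc2l and Bop1, of which only Bop1 also missed an unadjusted p under 0.05. In 28 of the 35 members every Tw2+ library lay above every Tw2- library, a pattern found in 18.2% of all tested genes. The groups overlapped for Ncl, Polr1a, Utp15, Utp18, Utp20, Noc2l and Bop1, and of these Utp15 alone was called.

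**Figure D1:**
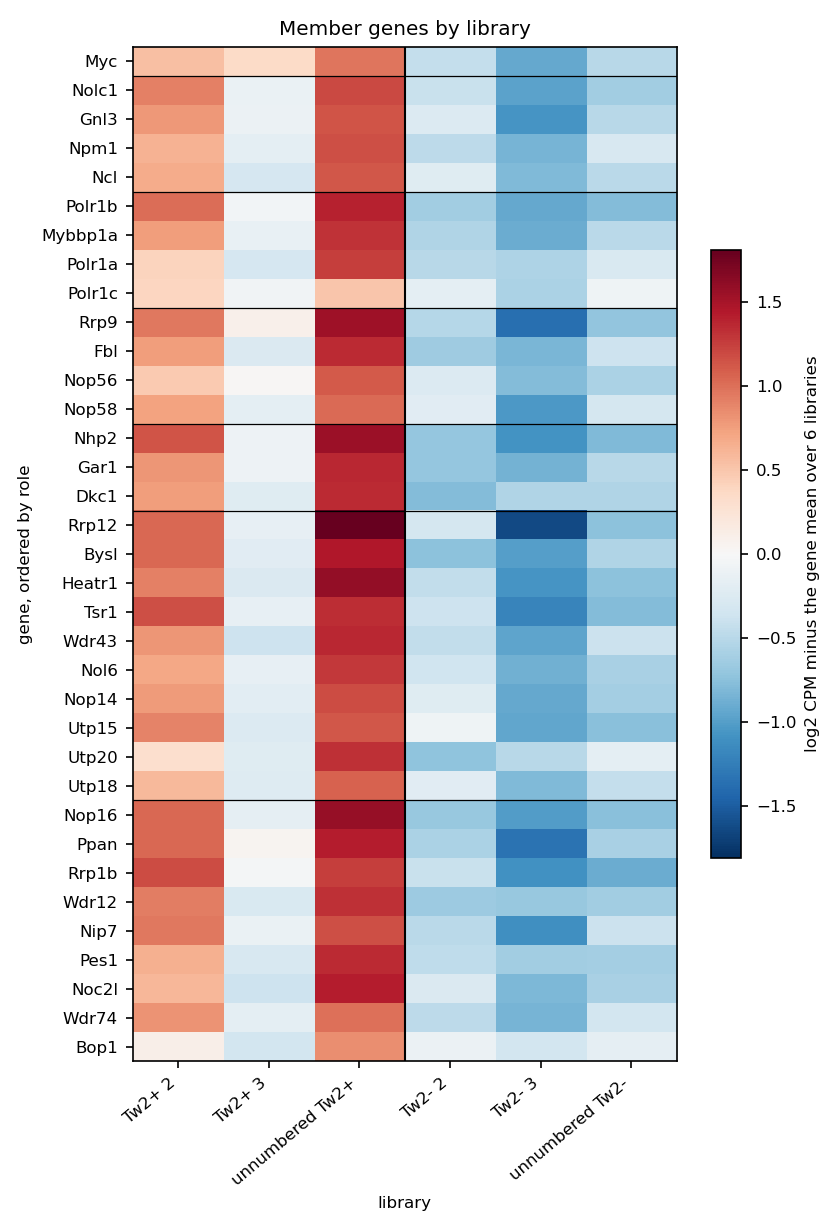
Heat map of the 35 members (rows, grouped by role) in the 6 libraries (columns, Tw2+ libraries left of Tw2- libraries), with the colour giving log2 CPM minus the gene's mean over the 6 libraries. In all 35 rows the unnumbered Tw2+ library is the highest of the Tw2+ libraries and Tw2+ 3 the lowest, and in 28 rows every Tw2+ library lies above every Tw2- library.

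**Figure D2:**
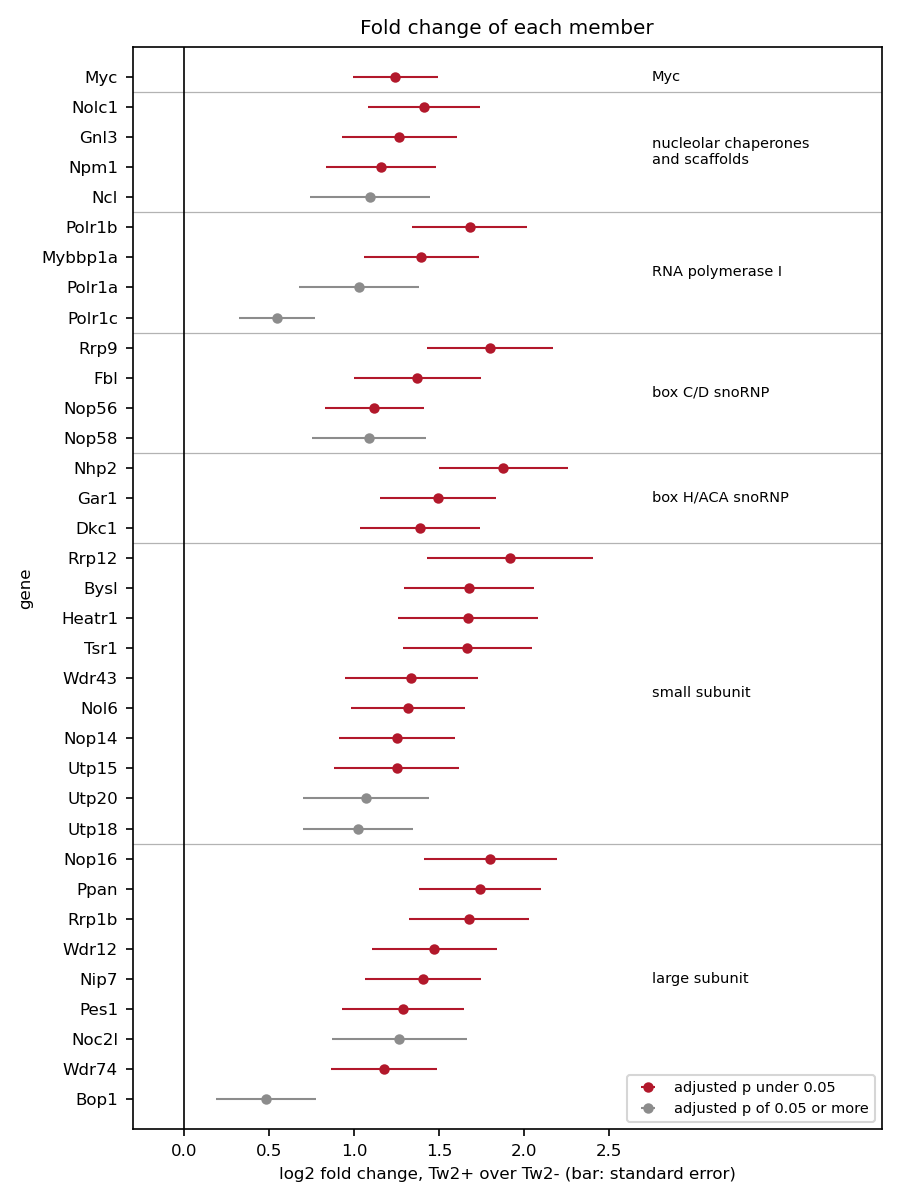
Fitted log2 fold change of Tw2+ over Tw2- for each of the 35 members, with bars of 1 standard error, in role groups; the 27 members called higher are red and the 8 without a call grey. All points lie right of 0, between 0.48 and 1.92; Bop1 falls left of 0 only if libraries are scaled to fibroblast markers.

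Myc itself (chr15:61985391-61990374, + strand, GRCm38) was more than 2-fold higher in Tw2+ cells. It had 845 CPM (Tw2+ 2), 740.4 CPM (Tw2+ 3) and 1135 CPM (unnumbered Tw2+), against 432 CPM (Tw2- 2), 306 CPM (Tw2- 3) and 411 CPM (unnumbered Tw2-). Every Tw2+ library lay above every Tw2- library, with the largest value in the unnumbered Tw2+ library and the smallest in Tw2- 3. Myc averaged 907 ± 204 CPM in Tw2+ cells and 383 ± 67.9 CPM in Tw2- cells (SD, n = 3 each), and edgeR's quasi-likelihood test gave a log2 fold change of 1.24 with an SE of 0.25 (adjusted p = 0.0121). The adjusted p of Myc was 0.0736 without Tw2- 3 and 0.126 with scaling to fibroblast markers, so that the call was lost in those edgeR fits. Of 11 tested genes of the Myc and Max network, 1 was called higher and 2 lower, against 7.41% and 10.8% of all tested genes. Mycn, the neuronal paralog of Myc, was the higher one, with 28.9, 21.1 and 32.6 CPM in Tw2+, against 12.6, 11.7 and 8.88 CPM in Tw2- (adjusted p = 0.00954 for a log2 fold change of 1.31, SE 0.25, edgeR). Mxd1, whose protein competes with Myc for Max and represses the same kind of promoter, was lower, with 35.0, 23.5 and 24.8 CPM in Tw2+, against 122, 70.1 and 71.1 CPM in Tw2- (adjusted p = 0.00518 for a log2 fold change of -1.66, SE 0.28, edgeR). Neither gene's groups overlapped. Mxd1 was called in all 6 fits that left out 1 library. Mycn, like Myc, lost its call without Tw2- 3 and with scaling to fibroblast markers. Under that scaling 0 genes of the network were higher, also at an unadjusted p under 0.05, and 4 were lower. Of all 13180 tested genes, 118 were then called higher and 3187 lower. Mycl, another Myc paralog, was also lower at a very low level, 0.201 ± 0.0874 CPM in Tw2+ cells and 1.08 ± 0.266 CPM in Tw2- cells (log2 fold change -2.35, adjusted p = 0.0196, edgeR). It was called in 2 of the 6 fits without 1 library and was named after its values were seen. The most abundant members of that network, Mlxip and Mga, were not called, with log2 fold changes of 0.28 and -0.17 (adjusted p = 0.338 and 0.514, edgeR). Max, the common partner, averaged 71.6 ± 13.9 CPM in Tw2+ cells and 71.1 ± 4.27 CPM in Tw2- cells (log2 fold change 0.01, SE 0.19) and was also named after its values were seen.

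The nucleolar scaffold and chaperone genes comprised 4 members, of which 3 were called higher, with a median log2 fold change of 1.21. Nolc1, which encodes a chaperone of snoRNPs, had 241 CPM (Tw2+ 2), 117 CPM (Tw2+ 3) and 291 CPM (unnumbered Tw2+), against 96.2 CPM (Tw2- 2), 65.1 CPM (Tw2- 3) and 82.5 CPM (unnumbered Tw2-) (adjusted p = 0.0216 for a log2 fold change of 1.41, SE 0.33, edgeR). Gnl3 encodes nucleostemin, a nucleolar GTP-binding protein of stem and dividing cells, and had 342, 184 and 437 CPM in Tw2+, against 166, 94.6 and 139.8 CPM in Tw2- (adjusted p = 0.0347 for a log2 fold change of 1.27, SE 0.34). For both genes Tw2+ 3 was the Tw2+ library closest to the Tw2- libraries, 184 against 166 CPM in Tw2- 2 for Gnl3. Ncl encodes nucleolin, an abundant RNA-binding protein of the nucleolus. It had 1043, 533 and 1438 CPM in Tw2+, against 564, 378 and 469 CPM in Tw2- and was not called (adjusted p = 0.0618 for a log2 fold change of 1.09, SE 0.35). Tw2+ 3 lay below Tw2- 2. Npm1, the nucleolar chaperone nucleophosmin, averaged 184 ± 80.2 CPM in Tw2+ cells and 82.4 ± 15.4 CPM in Tw2- cells (adjusted p = 0.0402 for a log2 fold change of 1.16, SE 0.32). GENCODE lists 4 processed pseudogenes that share at least 95% identity over at least 200 bases with Npm1, so reads may have been split between them.

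The 4 genes tied to RNA polymerase I divided evenly, with 2 called higher and 2 not, and had a median log2 fold change of 1.21. Polr1b encodes the second-largest subunit of the enzyme and had 75.6 CPM (Tw2+ 2), 36.2 CPM (Tw2+ 3) and 98.4 CPM (unnumbered Tw2+), against 24.3 CPM (Tw2- 2), 19.6 CPM (Tw2- 3) and 21.7 CPM (unnumbered Tw2-) (adjusted p = 0.0121 for a log2 fold change of 1.68, SE 0.34, edgeR). Its Tw2- libraries lay within a few CPM of each other, while the Tw2+ libraries spread over more than 2-fold. Mybbp1a, a nucleolar protein that associates with the polymerase, had 375, 201 and 548 CPM in Tw2+, against 152, 118 and 157 CPM in Tw2- (adjusted p = 0.026 for a log2 fold change of 1.40, SE 0.34). Polr1c, a subunit shared with RNA polymerase III, had 62.6, 45.9 and 67.7 CPM in Tw2+, against 42.6, 32.3 and 45.6 CPM in Tw2- and was not called (adjusted p = 0.113 for a log2 fold change of 0.55, SE 0.22). Its groups did not overlap, but the lowest Tw2+ and the highest Tw2- library differed by less than 1 CPM. Polr1a, the largest subunit, averaged 63.8 ± 34.1 CPM in Tw2+ cells and 31.2 ± 3.36 CPM in Tw2- cells and was not called either (adjusted p = 0.0721 for a log2 fold change of 1.03, SE 0.35).

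Of the 4 box C/D snoRNP genes 3 were called higher, and of the 3 box H/ACA genes all 3 were. The median log2 fold changes were 1.25 for box C/D genes and 1.50 for box H/ACA genes. Rrp9, a protein of the U3 particle that guides early cleavage of the precursor, had 106 CPM (Tw2+ 2), 58.4 CPM (Tw2+ 3) and 159 CPM (unnumbered Tw2+), against 38.2 CPM (Tw2- 2), 21.2 CPM (Tw2- 3) and 33.3 CPM (unnumbered Tw2-) (adjusted p = 0.0133 for a log2 fold change of 1.80, SE 0.37, edgeR). The lowest Tw2+ library lay well above the highest Tw2- library. Nop56 and Nop58 encode the paired core proteins of box C/D particles. Nop56 had 241, 176 and 375 CPM in Tw2+, against 147, 101 and 117 CPM in Tw2- (adjusted p = 0.0328 for a log2 fold change of 1.12, SE 0.29), while Nop58 had 341, 181 and 418 CPM in Tw2+, against 178, 100.4 and 164 CPM in Tw2- and was not called (adjusted p = 0.0542 for a log2 fold change of 1.09, SE 0.34). For Nop58, Tw2+ 3 lay just above Tw2- 2. Fbl encodes the methyltransferase fibrillarin and averaged 39.9 ± 20.3 CPM in Tw2+ cells and 15.4 ± 2.47 CPM in Tw2- cells (adjusted p = 0.0365 for a log2 fold change of 1.37, SE 0.37).

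Among the box H/ACA genes, Nhp2 had the largest difference, with 58.9 CPM (Tw2+ 2), 25.0 CPM (Tw2+ 3) and 78.1 CPM (unnumbered Tw2+), against 16.3 CPM (Tw2- 2), 12.5 CPM (Tw2- 3) and 15.2 CPM (unnumbered Tw2-) (adjusted p = 0.0124 for a log2 fold change of 1.88, SE 0.38, edgeR). Nhp2 is a core protein of the particle, and its 3 Tw2- libraries were closely spaced. Gar1, another core protein, had 54.8, 29.4 and 81.6 CPM in Tw2+, against 19.3, 17.4 and 22.1 CPM in Tw2- (adjusted p = 0.0205 for a log2 fold change of 1.50, SE 0.34). Dkc1, the pseudouridine synthase dyskerin, had 61.0, 31.1 and 92.3 CPM in Tw2+, against 20.9, 24.8 and 24.7 CPM in Tw2- (adjusted p = 0.0298 for a log2 fold change of 1.39, SE 0.35). All 3 genes kept every Tw2+ library above every Tw2- library.

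Of 10 genes of the small subunit pathway, 8 were called higher, with a median log2 fold change of 1.33. Tsr1, a factor of late small subunit maturation, had 213 CPM (Tw2+ 2), 85.8 CPM (Tw2+ 3) and 239.9 CPM (unnumbered Tw2+), against 73.4 CPM (Tw2- 2), 41.5 CPM (Tw2- 3) and 55.1 CPM (unnumbered Tw2-) (adjusted p = 0.0205 for a log2 fold change of 1.66, SE 0.38, edgeR). Bysl encodes bystin, whose yeast counterpart acts on small subunit precursors, and had 64.8, 27.4 and 86.6 CPM in Tw2+, against 18.7, 15.7 and 21.6 CPM in Tw2- (adjusted p = 0.0199 for a log2 fold change of 1.68, SE 0.38). Wdr43, whose product joins the complex that binds the precursor during transcription, had 165, 73.1 and 244 CPM in Tw2+, against 69.8, 48.7 and 72.3 CPM in Tw2- (adjusted p = 0.0453 for a log2 fold change of 1.34, SE 0.39). Tw2+ 3 was within 1 CPM of the unnumbered Tw2- library for Wdr43, so that its groups barely separated. Heatr1 and Utp15 belong to the same complex in yeast, and averaged 140.0 ± 79.7 CPM in Tw2+ cells and 44.0 ± 9.61 CPM in Tw2- cells (adjusted p = 0.0271 for a log2 fold change of 1.67, SE 0.41), and 98.8 ± 42.5 CPM in Tw2+ cells and 41.5 ± 13.8 CPM in Tw2- cells (adjusted p = 0.0463 for a log2 fold change of 1.25, SE 0.37). Rrp12 had the largest fold change of all members, 98.0 ± 59.5 CPM in Tw2+ cells and 26.0 ± 10.9 CPM in Tw2- cells, with the largest standard error as well (adjusted p = 0.0305 for a log2 fold change of 1.92, SE 0.49). Nol6 and Nop14, components of the early small subunit particle, had log2 fold changes of 1.32 (SE 0.33) and 1.25 (SE 0.34), with adjusted p = 0.0299 and 0.0372 by edgeR. Utp18 and Utp20 were not called, with log2 fold changes of 1.03 and 1.07 (adjusted p = 0.0572 and 0.0729, edgeR).

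Of 9 genes of the large subunit pathway, 7 were called higher, with a median log2 fold change of 1.41. Ppan, the mammalian counterpart of the fly gene Peter pan, had 158 CPM (Tw2+ 2), 79.4 CPM (Tw2+ 3) and 205 CPM (unnumbered Tw2+), against 51.5 CPM (Tw2- 2), 30.1 CPM (Tw2- 3) and 51.1 CPM (unnumbered Tw2-) (adjusted p = 0.0135 for a log2 fold change of 1.74, SE 0.36, edgeR). Rrp1b, a nucleolar protein that also binds a protein phosphatase, had 93.4, 40.2 and 98.0 CPM in Tw2+, against 31.2, 19.2 and 22.0 CPM in Tw2- (adjusted p = 0.0145 for a log2 fold change of 1.68, SE 0.35). Both separated clearly in all libraries. Noc2l had 183, 93.1 and 324 CPM in Tw2+, against 101, 68.6 and 80.0 CPM in Tw2- and was not called (adjusted p = 0.0565 for a log2 fold change of 1.27, SE 0.40); Tw2+ 3 lay below Tw2- 2. Pes1, Bop1 and Wdr12 encode the PeBoW complex, which is needed to cut and mature the large subunit RNAs. Its members differed in outcome: Wdr12 averaged 29.1 ± 14.1 CPM in Tw2+ cells and 10.5 ± 0.185 CPM in Tw2- cells (log2 fold change 1.47, adjusted p = 0.0285) and Pes1 93.0 ± 49.4 CPM in Tw2+ cells and 38.1 ± 2.54 CPM in Tw2- cells (log2 fold change 1.29, adjusted p = 0.0397). Bop1 averaged 39.5 ± 16.7 CPM in Tw2+ cells and 28.2 ± 2.25 CPM in Tw2- cells and was not called (adjusted p = 0.262 for a log2 fold change of 0.48, SE 0.29, edgeR), and the difference between these genes was not tested. Nop16, Nip7 and Wdr74, further large subunit assembly factors, were called with log2 fold changes of 1.80, 1.41 and 1.17 (adjusted p = 0.017, 0.0257 and 0.0346, edgeR).

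The members moved together across libraries as well as between groups. In all 35 members the Tw2+ libraries followed the same order, with the unnumbered library highest and Tw2+ 3 lowest, an order found in 30.8% of tested genes. The unnumbered Tw2+ library exceeded Tw2+ 3 by a median of 2.72-fold (range 1.47 to 3.90), so the spread within Tw2+ was of the size of the difference between the groups. Tw2+ 3 itself stood at a median of 1.36 times the Tw2- mean, between 0.910 for Bop1 and 1.93 for Myc. Within the Tw2- group the highest library exceeded the lowest by a median of 1.46-fold, and Tw2- 3 was the lowest for 33 members. As a share of all counts, the 35 genes took 0.531%, 0.350% and 0.713% in Tw2+, against 0.314%, 0.223% and 0.281% in Tw2-. Even the lowest Tw2+ share was above the highest Tw2- share. Without Myc these shares lay closer together, at 0.276% in Tw2+ 3 and 0.267% in Tw2- 2. Beside this, 12 immediate early and dissociation-response genes summed to 18621, 42641 and 17613 CPM in Tw2+, against 31528, 40530.5 and 35056 CPM in Tw2-. That sum was highest in Tw2+ 3 and in Tw2- 3, the libraries in which the members were mostly lowest, and its part in the result was not tested.

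**Figure D3:**
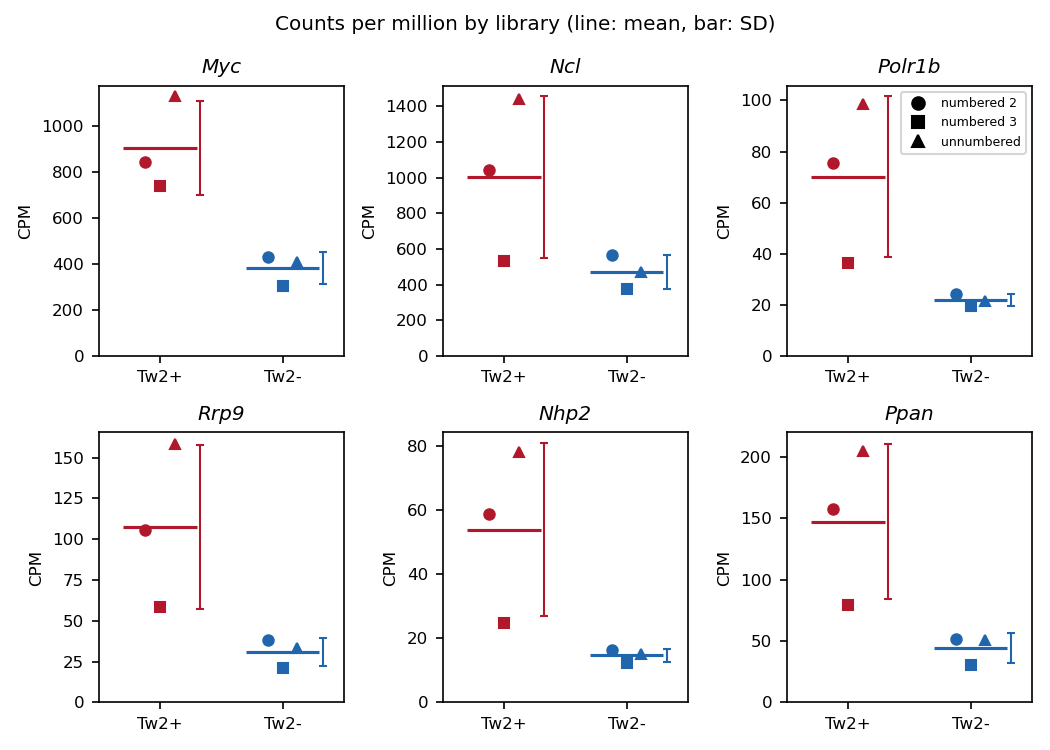
Levels of Myc, Ncl, Polr1b, Rrp9, Nhp2 and Ppan in CPM (linear axis), 1 point per library, with Tw2+ left of Tw2-, a line at each group mean and a bar of 1 SD. Tw2+ 3 (square) is the lowest Tw2+ point in each panel and the unnumbered Tw2+ library (triangle) the highest; the groups overlap for Ncl only.

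The number of calls depended strongly on single libraries, whereas the direction did not. Without Tw2+ 3 all 35 members were called higher, against 20.7% of all tested genes, and without the unnumbered Tw2+ library 7 were, against 1.68%. Without Tw2+ 2 the count was 6, against 1.39% of tested genes, without Tw2- 2 it was 7, against 2.94%, and without the unnumbered Tw2- library it was 7, against 2.22%. Without Tw2- 3, edgeR called 0 members higher, against 0.609% of tested genes, while 29 of 35 were higher at an unadjusted p under 0.05. With both Tw2+ 3 and the unnumbered Tw2- library left out, 34 were called, against 19.0%. All 35 log2 fold changes stayed above 0 in each of these fits. Myc, Polr1b, Rrp9, Nhp2 and Ppan were called in 5 of the 6 fits that left out 1 library, the exception being the fit without Tw2- 3. Nop16 and Rrp1b were called in 3 of them and Gar1, Bysl and Tsr1 in 2. The other members were called only in the fit without Tw2+ 3. The log2 fold change of Myc ranged from 1.04 to 1.37 over those fits. On all 6 libraries DESeq2 called 33 members higher, against 11.9% of tested genes, and limma-voom called 21, against 5.65%. With RLE scaling 25 were called, against 6.30% of tested genes, and with upper-quartile scaling 27, against 6.15%. Without a filter on low counts 33 were called, against 6.88%, with at least 50 counts in 3 libraries 25, against 6.32%, and with robust dispersion 27, against 7.22%. With library-size scaling 15 were called, against 3.07%, and at an adjusted p under 0.01 edgeR called 0, against 0.683%, while 34 had an unadjusted p under 0.05. On the 4 numbered libraries alone, edgeR called 31 with the replicate number as a block, against 9.61%, and 0 without the block, against 0.850%, where 25 had an unadjusted p under 0.05. The block left fewer degrees of freedom for estimating the spread between these few libraries. Scaling the libraries to the 13 fibroblast markers instead sets the summed level of those markers equal in all libraries. It left 1 member (Nhp2) called higher, against 0.895% of tested genes. Under that scaling the median over all tested genes was -0.53, all 35 members lay above it, the members' median was 0.81, and Bop1 fell below 0, at -0.043.

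**Figure D4:**
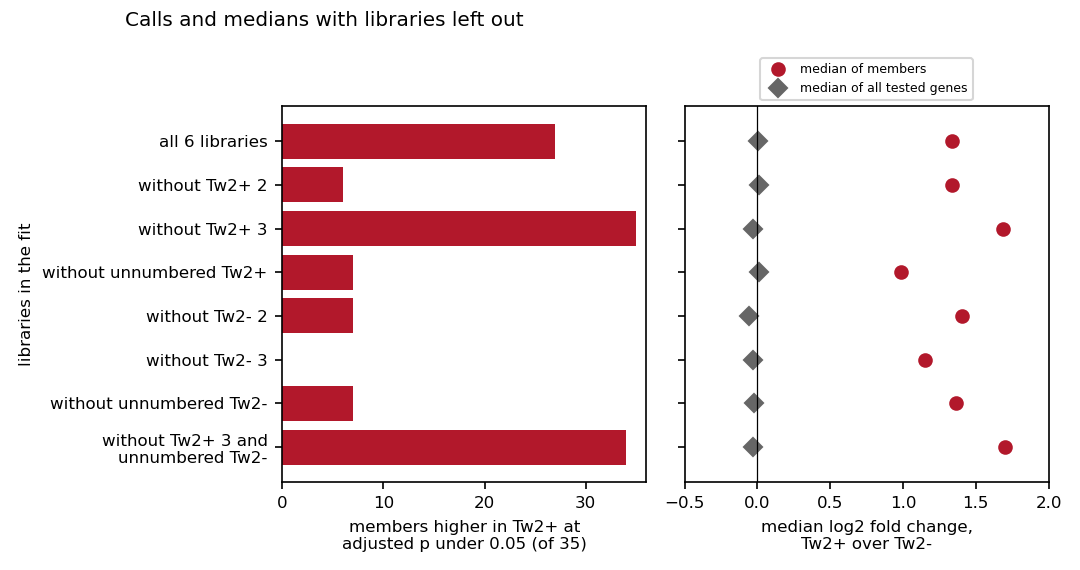
Number of the 35 members called higher in Tw2+ cells (left, bars) and median log2 fold change of Tw2+ over Tw2- of the members and of all tested genes (right, points), with all 6 libraries and with libraries left out. The count is 27 with all libraries, 35 without Tw2+ 3 and 0 without Tw2- 3, while the members' median stays well right of that of all genes.

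The difference extended to ribosome biogenesis genes outside the member list. Further tested genes of RNA polymerase I, snoRNPs and the small and large subunit pathways numbered 109. In edgeR's test 56 were called higher, against 7.41% of all tested genes. A positive log2 fold change was found in 106, and the median was 1.06. The count of higher calls was 96 without Tw2+ 3, against 20.7% of all tested genes. It was 0 without Tw2- 3 (61 at an unadjusted p under 0.05), against 0.609%. Without any of the other 4 libraries it was 13 to 19, against 1.39% to 2.94%. Scaled to fibroblast markers it was 5, against 0.895%, with 1 gene lower. Taken singly, the large subunit, small subunit, RNA polymerase I and snoRNP lists had 39, 38, 9 and 10 genes called higher without Tw2+ 3 and 0 each without Tw2- 3, where 27, 22, 7 and 5 had an unadjusted p under 0.05. Rrs1, Nol9, Rcl1 and Pwp2 were called in 5 of the 6 fits without 1 library, Nop2 in 4, Cd3eap and Polr1e in 2, and Ddx21 and Nhp2l1 only without Tw2+ 3. The 3 below 0 were Taf1b, Ttf1 and Utp23, with log2 fold changes of -0.44, -0.12 and -0.07, none of them called. Of 43 large subunit factors 24 were called higher (median 1.12), among them Rrs1 (adjusted p = 0.00983 for a log2 fold change of 1.57, SE 0.30) and Nol9, a kinase of the precursor RNA (adjusted p = 0.0105 for a log2 fold change of 1.76, SE 0.34). Of 40 small subunit factors 21 were (median 0.99), with Rcl1 and Pwp2, both factors of early small subunit assembly known from yeast, at log2 fold changes of 1.98 (SE 0.38, adjusted p = 0.0102) and 1.98 (SE 0.40, adjusted p = 0.0117). Pwp2 had 125, 52.5 and 171 CPM in Tw2+, against 36.4, 23.2 and 28.9 CPM in Tw2-, with no overlap. Of 14 genes of the RNA polymerase I machinery 6 were called higher (median 0.84). They included the polymerase subunits Cd3eap and Polr1e, at 1.51 and 1.56, and the nucleolar RNA helicase Ddx21, at 1.45 (adjusted p = 0.0185, 0.0238 and 0.0317, edgeR). Ubtf, the factor that keeps ribosomal DNA open for the polymerase, was not called (adjusted p = 0.191 for a log2 fold change of 0.38, SE 0.19). Of 12 tested snoRNP and RNA modification genes 5 were called higher (median 0.81), including Nop2, a methyltransferase of ribosomal RNA (adjusted p = 0.0163 for a log2 fold change of 1.71, SE 0.37), and Nhp2l1, a core protein of box C/D particles (adjusted p = 0.04 for a log2 fold change of 0.88, SE 0.25). The RNA exosome, which trims and degrades nuclear RNA, had 2 of 13 genes called higher, against 7.41% of all tested genes, and a median of 0.56. The 2 called were Exosc2 (adjusted p = 0.0163 for a log2 fold change of 1.50, SE 0.32, edgeR) and the exosome nuclease Dis3 (adjusted p = 0.0249 for a log2 fold change of 1.25, SE 0.30, edgeR). Exosc10 and Skiv2l2, the most abundant genes of that list, were not called. The exosome count was 9 of 13 without Tw2+ 3, 1 without either other Tw2+ library, and 0 without any of the Tw2- libraries, with 2 to 6 genes higher at an unadjusted p under 0.05.

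**Figure D5:**
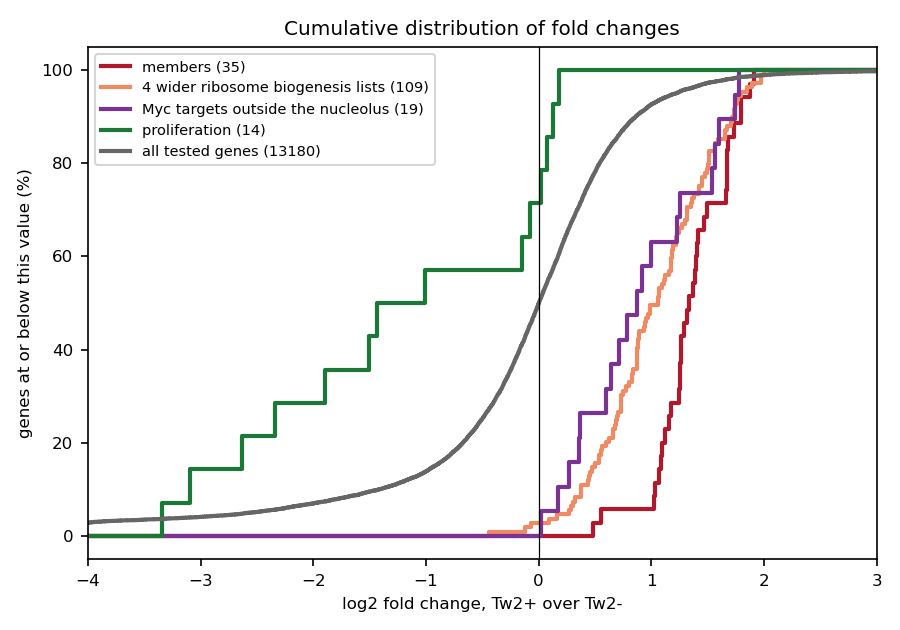
Cumulative distributions of the log2 fold change of Tw2+ over Tw2- (x axis; y axis, percentage of genes at or below that value) for the 35 members, 109 further ribosome biogenesis genes, 19 Myc targets outside the nucleolus and 14 proliferation genes, set against all 13180 tested genes. The members' median is 1.34, that of the 109 further genes 1.06 and that of all tested genes 0.002.

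Genes often listed as Myc targets outside the nucleolus were counted beside the members. Of 19 tested, 7 were called higher in edgeR's test, against 7.41% of all tested genes, and all 19 had a positive log2 fold change (median 0.87), though 14 of 19 did with scaling to fibroblast markers, which left 1 call. The count was 14 without Tw2+ 3, against 20.7% of tested genes, and 0 without Tw2- 3 (8 at an unadjusted p under 0.05), against 0.609%. Without any of the other 4 libraries it was 2 to 4, against 1.39% to 2.94%. Odc1, the first enzyme of polyamine synthesis, had 1019.9 CPM (Tw2+ 2), 697 CPM (Tw2+ 3) and 1542 CPM (unnumbered Tw2+), against 453 CPM (Tw2- 2), 299 CPM (Tw2- 3) and 347 CPM (unnumbered Tw2-) (adjusted p = 0.0133 for a log2 fold change of 1.57, SE 0.32). Shmt2, the mitochondrial serine hydroxymethyltransferase, averaged 99.9 ± 52.2 CPM in Tw2+ cells and 29.9 ± 3.47 CPM in Tw2- cells (adjusted p = 0.0132 for a log2 fold change of 1.74, SE 0.36), and Eif5a, a translation factor, 540.0 ± 162 CPM in Tw2+ cells and 270.4 ± 29.8 CPM in Tw2- cells (adjusted p = 0.0331 for a log2 fold change of 1.00, SE 0.26). Proliferation genes did not follow this direction. Of 14 tested, 7 were called lower, against 10.8% of all tested genes, and 6 or 7 in each fit without 1 library. None was called higher by edgeR, DESeq2 or limma-voom, or higher at an unadjusted p under 0.05 in edgeR's test (0 each). Mki67, a marker of cycling cells, had 3.11, 3.98 and 1.71 CPM in Tw2+, against 37.1, 29.0 and 24.3 CPM in Tw2- (adjusted p = 0.000353 for a log2 fold change of -3.35, SE 0.34), and Top2a, a topoisomerase of dividing cells, averaged 2.55 ± 0.849 CPM in Tw2+ cells and 12.9 ± 2.49 CPM in Tw2- cells (adjusted p = 0.00207 for a log2 fold change of -2.34, SE 0.33). Pcna, a replication clamp, had 85.6, 50.2 and 97.0 CPM in Tw2+, against 91.0, 72.3 and 57.1 CPM in Tw2- and was not called (log2 fold change 0.08, adjusted p = 0.86). The Tw2- cells also held the macrophage, neutrophil and B cell markers, of which 12 of 12, 6 of 6 and 5 of 5 tested genes were lower in Tw2+ cells, and their part in the proliferation result was not tested. Of 10 targets of p53, a factor that responds when ribosome assembly is disturbed, 2 were called higher, against 7.41% of all tested genes. Their median log2 fold change over all 10 was 0.11, and 5 were above 0. The 2 called were Sesn2 (adjusted p = 0.0144 for a log2 fold change of 2.06, SE 0.43, edgeR) and Aen (adjusted p = 0.0229 for a log2 fold change of 1.46, SE 0.34, edgeR). Cdkn1a and Mdm2, the best known p53 targets, were not called, with log2 fold changes of -0.75 and 0.48 (adjusted p = 0.16 and 0.279, edgeR). The count of p53 targets called higher was 2 without Tw2+ 3, against 20.7% of all tested genes, and 2 others were then called lower. It was 1 without either other Tw2+ library or Tw2- 2, against 1.39% to 2.94%. Without Tw2- 3 or the unnumbered Tw2- library it was 0, against 0.609% and 2.22%, where 2 had an unadjusted p under 0.05. On all 6 libraries DESeq2 called 2 higher and 1 lower. Of the 12 immediate early and dissociation-response genes 3 were called lower and 0 higher, against 10.8% and 7.41% of all tested genes. None was higher at an unadjusted p under 0.05 or by DESeq2 or limma-voom (0 each). The lower ones include the heat shock genes Hspa1a and Hspa1b, at -1.93 and -1.47 (adjusted p = 0.00371 and 0.021, edgeR). The count of lower genes was 7 without Tw2+ 3, 2 without the unnumbered Tw2- library and 1 without any of the other 4 libraries. Hspa1a was called in all 6 of these fits. Egr1 and Fosb, the most abundant genes of that list, were called in 0 of them.

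Other cell types differed between the groups beside the members. Cardiomyocyte markers, 12 of 12 lower in Tw2+ cells, summed to 155 to 503 CPM in Tw2+ libraries, against 816 to 1526 CPM in Tw2- libraries, and neutrophil markers, with 2 of 6 at 0 in every Tw2+ library, to 2.42 to 2.85 CPM in Tw2+ libraries, against 153 to 321 CPM in Tw2- libraries. Of 12 vascular endothelial markers 5 were called lower, against 10.8% of all tested genes. Cdh5 had 25.4, 103 and 17.4 CPM in Tw2+, against 353, 355 and 83.7 CPM in Tw2-. Fibroblast markers had 1 of 13 called higher, against 7.41% of all tested genes, and a median log2 fold change of 0.66. Dcn, the matrix proteoglycan decorin, averaged 12151 ± 914 CPM in Tw2+ cells and 8216 ± 1988 CPM in Tw2- cells and was not called (log2 fold change 0.56, adjusted p = 0.212). Pericyte markers had 1 gene called higher and 1 called lower of 8, against 7.41% and 10.8% of all tested genes. Of the 8, 7 had a log2 fold change below 0, and the median was -1.17. Their sum was 548 to 671 CPM in Tw2+ libraries, against 388 to 770.1 CPM in Tw2- libraries. Smooth muscle markers had 2 of 5 called lower and summed to 176 to 184 CPM in Tw2+ libraries, against 185 to 193 CPM in Tw2- libraries. Mesothelial markers summed to 74.6, 182 and 58.0 CPM in Tw2+, against 123, 66.2 and 55.6 CPM in Tw2-, highest in Tw2+ 3. The part of these cell types in the members' result was not tested. Whether the members differ within 1 cell type or through the mixture of cell types cannot be told apart in these libraries.

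Some members carry features of gene structure that the list did not use. In GENCODE M21 on GRCm38 the 35 genes lie on 17 chromosomes, so they are not a cluster of neighbours. Small nucleolar RNA genes lie inside 8 of the 35 members on the same strand (22.9%), compared with 235 of 19670 protein-coding genes of the table (1.19%). That comparison includes genes not tested for expression, whereas all 35 members were tested, and the share among tested genes was not computed. These hosts are Nop56 with 5 such genes, Nop58 with 4, Ncl, Gnl3 and Wdr43 with 3 each, Tsr1 and Ppan with 2 each and Dkc1 with 1, which makes 23 in all. snoRNAs released from the introns of such hosts guide the modification of ribosomal RNA. The exons of Tsr1 share 32.3% of their length with Srr and those of Noc2l 20.9% with Samd11, both on the opposite strand. How strand was handled in counting is not stated in what was used here, so reads from the shared stretches cannot be assigned to either gene. Besides Npm1, processed pseudogenes with at least 95% identity over at least 200 bases were found for Nop56, Pes1, Fbl and Wdr12, whose counts are uncertain to that degree. Protein-coding genes of the table matched at the same cut as well, Tulp4 for Fbl (99.6% over 690 bases) and Vmn1r88 for Wdr12 (97.2% over 1377 bases). Wdr12 also had shorter matches to Cxcr2, Ppip5k1 and Tmod3. Bysl shares 361 bases, 9.37% of its exonic length, with Ccnd3 on the opposite strand.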

How the data were processed

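The authors deposited raw counts for 6 libraries and 24062 gene symbols, per the file headers and values. The submitters' processing notes list TopHat2 (2.0.0) and DESeq2 (1.6.3), and as builds both mm10 and GRCm38, with no roles. The counter and its strand setting are not stated in what was used here. Per the labels' protocols, hearts were digested by Langendorff perfusion, and the non-cardiomyocyte fraction was stained with Mitoview633 and sorted on tdTomato. Library totals ranged from 11746696 to 16447098 counts, 0 columns were left unused, and no pair of libraries of a group agreed within sampling noise (smallest chi-square over genes, divided by its degrees of freedom, 25.3).

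The counts were tested with edgeR 4.0.16 in R 4.3.3 (glmQLFit, glmQLFTest) on all 6 libraries, with TMM factors of 0.846 to 1.13 and filterByExpr at a minimum count of 10, which kept 13180 genes and all 35 members. Adjustment followed Benjamini and Hochberg over all tested genes, and p-values reflect the spread between the libraries of a group, which the series calls biological replicates. The standard error is the absolute log2 fold change divided by the square root of F, and the biological coefficient of variation was 27.6%. The test was tried on simulated data first. DESeq2 1.42.0, limma-voom (limma 3.58.1), other scalings and filters, the replicate number as a block and fits without 1 library were alternatives.

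The members and all gene lists were chosen with earlier results of these data known, so that no p over the members alone is given. Values per library are printed for Myc and, in each role group, for the 2 members with the smallest adjusted p and the 2 with the highest mean level. The same rule picked up to 4 genes from each further list, 2 by adjusted p and 2 by level, and up to 2 by level from cell type lists. Not all genes picked from these lists are described. Emg1, Pdcd11, Rsl1d1, Ftsj3 and Mcm4 were picked but are not described, and of the cell type genes only Cdh5 and Dcn are. Other members are given by means, fold changes and counts, and Taf1b, Ttf1, Utp23, Max and Mycl were named after their values were seen. Gene positions came from GENCODE M21 on GRCm38, and promoters from RefSeq on GRCm38.p6, both strands of which were searched. The single-cell libraries of the series were not analysed here.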

Additional observations from a re-analysis of the deposited data

How the results depend on the processing

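Directions were stable and counts of calls were not. Over all alternatives, the members' median log2 fold change stayed between 0.81 and 1.70, and no member was called lower by any of them (0 at an unadjusted p under 0.05 as well). Across single members and alternatives, 423 comparisons with the reported result kept direction and side of the threshold, 210 kept the direction and lost the call, 31 kept the direction and gained one, and 1 reversed, Bop1 at -0.043 under fibroblast-marker scaling. Of the counts of members called higher, those with RLE or upper-quartile scaling, other filters, robust dispersion, DESeq2 and limma-voom lay within 1.5 times the 27 reported, between 21 and 33. The count was 15 with library-size scaling (3.07% of tested genes) and 1 with fibroblast-marker scaling (0.895%), where the log2 fold change of Myc was 0.70 (adjusted p = 0.126, edgeR). Those scalings moved the median of all tested genes to -0.28 and -0.53 on the log2 scale, and the share of higher genes among all calls to 19.1% and 3.57%, from 40.8% with TMM. At an adjusted p under 0.01, edgeR called 0 members (0.683% of tested genes), Myc included (log2 fold change 1.24, adjusted p = 0.0121), though 34 had an unadjusted p under 0.05. Leaving out each library in turn gave 0 to 35 members and a log2 fold change of Myc between 1.04 and 1.37; without Tw2- 3 its adjusted p was 0.0736. Of the 109 further ribosome biogenesis genes, 56 were called higher with the standard settings, against 7.41% of tested genes. The count was 30 with library-size scaling (3.07%), 5 with fibroblast-marker scaling (0.895%) and 1 at an adjusted p under 0.01 (0.683%). With 1 library left out it was 0 to 96. It was 96 without Tw2+ 3 (20.7%) and 0 without Tw2- 3 (0.609%), where 61 had an unadjusted p under 0.05. Without Tw2+ 3 and the unnumbered Tw2- library it was 95 (19.0%). The cause of these shifts was not tested. The replicate number as a block could use only the 4 numbered libraries: with the replicate block edgeR called 31 members (9.61% of tested genes) and 56 of the 109 genes, and on the same libraries without it 0 members (0.850% of tested genes; 25 at an unadjusted p under 0.05), 4 of the 109 genes, and a log2 fold change of Myc of 1.06 (adjusted p = 0.0783). Deviations from the group means of same-numbered libraries correlated at 0.20 and 0.56 across genes, and those of the unnumbered libraries at 0.24. For pairs of a Tw2+ and a Tw2- library with unlike labels, the correlations ran from -0.42 to 0.12. The unnumbered columns carry no number that would pair them, so a block over all 6 libraries was not fitted and the pairing was not settled. On the 4 numbered libraries the block also left fewer degrees of freedom for estimating the spread than the fit without it. The fits on numbered libraries without the block and the counts of the 109 genes were added after seeing the data. With 3 libraries a group, precision was limited by the spread between libraries rather than by counts per library.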
